A study of Arabidopsis thaliana with 16 samples.

Results

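Roots of the phosphate-export mutant pho1-4 of Arabidopsis thaliana (labelled KO) were compared with roots of the same mutant carrying the PHO1 gene again (labelled Compl), by counting transcripts in all genes. The members of the comparison were chosen by their labels: 2 KO and 2 Compl root libraries, 4 of the 16 libraries in all. Every plant was 25 days old and untreated, Oil-Dri pellets and Hoagland solution served for growth, and all 4 genotypes of the study carry the pho1-4 mutation. The other root libraries, 2 each from the lines EXS32 and EXS34 (pho1-4 with a GFP fusion of the EXS domain, the C-terminal part of PHO1), entered the same fit and helped to estimate the spread. The labels name neither the promoter that drives PHO1 in Compl, nor the number of lines or plants behind it, nor whether separate plants gave the replicates. The p-values therefore measure only the spread between these libraries.

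PHO1 exports phosphate from the cells around the root vessels into the xylem, the stream that carries it to the shoot, so pho1 shoots are poor in phosphate. Plants read phosphate shortage through the transcription factor PHR1, which binds a short promoter site and is held back by SPX proteins when phosphate is ample. Its targets include a microRNA, miR399, which lowers PHO2, the enzyme that marks phosphate transporters and PHO1 for breakdown, and genes that replace membrane phospholipids by lipids without phosphate. The comparison asks which root transcripts differ when PHO1 is missing.

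Reads counted in genes numbered 28423099 and 31405117 for KO, and for Compl 20139794 and 21975958. Of 20597 genes tested, 182 passed an adjusted p of 0.05 (edgeR's quasi-likelihood test), which is 0.884% of them: 96 were higher in KO (0.466%) and 86 lower (0.418%). Higher genes were thus 52.7% of the calls, and 65.8% of 237 calls when libraries were scaled by size alone. Levels below are CPM (read counts relative to library size) after TMM scaling, and differences are log2 fold changes of KO against Compl with their standard error. PHO1 itself (AT3G23430) stood at 2221 and 1937 CPM in KO and at 2267 and 2934 CPM in Compl, so both KO libraries lay just below both Compl libraries. Its log2 fold change was -0.32 ± 0.25 (adjusted p = 0.514). A mutant transcript and a transgene both give reads in this locus, so PHO1 does not check the labels. As markers of root tissue, 12 root hair genes summed to between 650.2 and 1034 CPM in the 4 libraries and to at most 41.9 CPM in any leaf library of the study. The 27 leaf photosynthesis genes summed to between 109 and 234 CPM in these roots and to at least 83425 CPM in leaves.

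Compl replicate 1 stood apart from the other root libraries across many genes, and Compl replicate 2 did so over 2 chromosome ends. The first axis of a principal component analysis of all 8 root libraries holds 40.9% of the variance. On it Compl replicate 1 lay at 68.3, Compl replicate 2 at 31.8, and the KO libraries at -17.3 and -6.34. The EXS34 libraries lay at -3.73 and 8.89, and the EXS32 libraries, at the other extreme, at -36.9 and -44.7. The root mean square log2 difference between the 2 Compl libraries was 0.569, larger than that between Compl replicate 2 and either KO library (0.521 and 0.522) and than that between the 2 KO libraries (0.397). Compl replicate 1 was at 0.719 and 0.676 from the KO libraries. Genes of the abscisic acid and cold response read high in it: the dehydrin gene RAB18 read 27.6 CPM there, 3.8 in Compl replicate 2, and 0.347 and 0.497 in KO. KIN1, a cold-induced gene, read 219 CPM against 1.53 CPM in Compl replicate 2, with KO between them at 8.58 and 8.97 CPM; 1 EXS34 library also read high, at 110.7 CPM. All 20 measured genes of that list were higher in Compl replicate 1 than in Compl replicate 2, by a median of 1.92 log2 units, where 49.4% of all genes tested were.

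Compl replicate 2 stood apart over 2 chromosome ends. On the left end of chromosome 1 (3631 to 190472, TAIR10.1) the 35 measured genes were lower there than in the median of Compl replicate 1 and the 4 EXS libraries, by a median of 0.976 log2 units that left a ratio of 0.509, and 35 of 35 were lower. On the left end of chromosome 5 (995 to 2176446) 412 of 427 measured genes were higher in it, by a median of 0.57 log2 units or a ratio of 1.48. The next 100 genes inward had medians of -0.05 and 0.01. The same 2 ends in every other library of the study, roots or leaves, had medians between -0.12 and 0.12 against their tissue. Whether these plants or this RNA differed in gene dosage there was not tested, and the ends were defined without using KO. They hold 588 tested genes, of which 17 were called in KO against Compl (2.89%, beside 0.825% of the 20009 genes elsewhere): 16 of the 17 were lower in KO and on chromosome 5, and CYP78A8 was higher and on chromosome 1. Gene values on these ends are marked as such below.

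**Figure D1:**
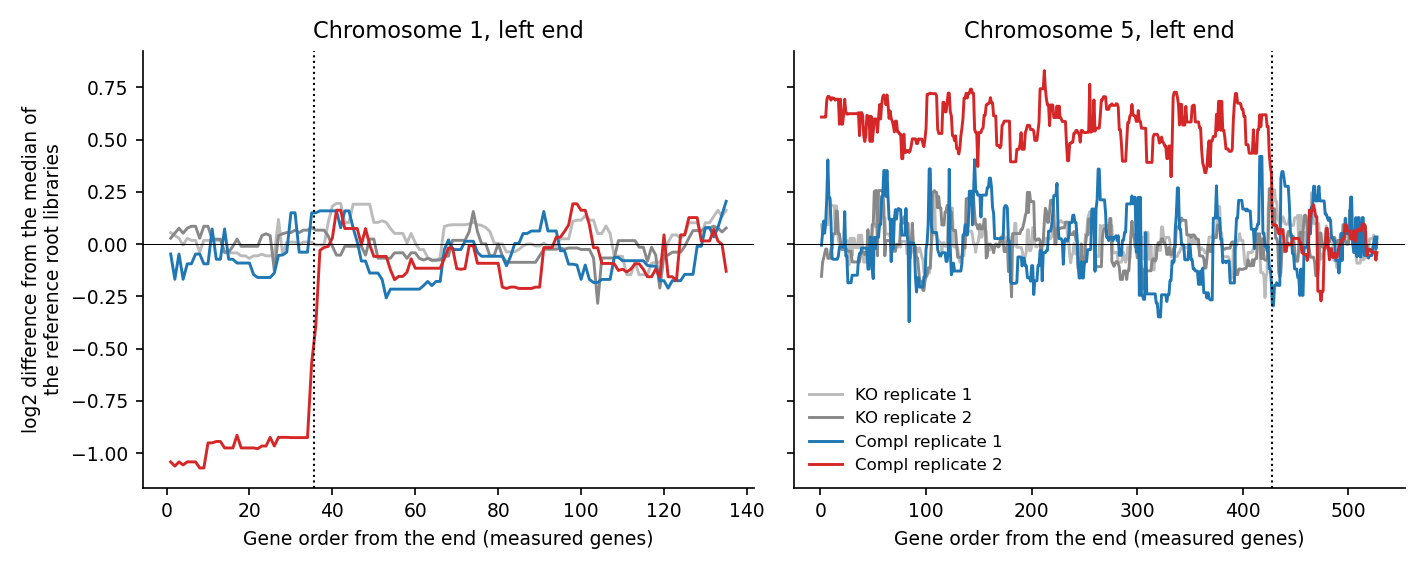
Running median over 9 genes of the log2 difference of each KO and Compl root library from reference root libraries (the 4 EXS libraries, plus Compl replicate 1 in the case of Compl replicate 2), against gene order from the left ends of chromosomes 1 and 5. Compl replicate 2 runs near -0.98 over the first 35 measured genes of chromosome 1 and near 0.57 over the first 427 of chromosome 5, up to the dotted lines, and joins the other libraries beyond them.

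How each change held was asked by fitting the comparison again with 1 Compl library left out. Without Compl replicate 1, 25 of 20898 genes were called (0.12%; 12 higher, 0.0574%, and 13 lower, 0.0622%). Without Compl replicate 2, 1427 of 20947 were (6.81%; 407 higher, 1.94%, and 1020 lower, 4.87%). Of the 182 genes of the full fit, 177 were called without Compl replicate 2 but only 12 without Compl replicate 1, and those 12 were called in both fits. Among the 182 genes the sizes of the changes moved little. Such agreement is largely fixed in advance, because a fit of the same libraries selected these genes. The values that follow describe it and do not test it. For all 182 genes both KO libraries lay on 1 side of both Compl libraries (48.4% of all genes tested did so), and the fold change without Compl replicate 1 was between 0.709 and 1.44 times the full one on the log2 scale. All 182 had an unadjusted p under 0.05 without it, and their adjusted p reached at most 0.15. Among the 96 higher genes Compl replicate 1 was the farther from KO for 48, with medians of 1.29 log2 units against it and 1.26 against Compl replicate 2. Among the 86 lower genes it was the farther for 63, with medians of -1.13 and -0.94. The calls also needed both KO libraries: few genes were called without KO replicate 1 and none without KO replicate 2.

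**Figure D2:**
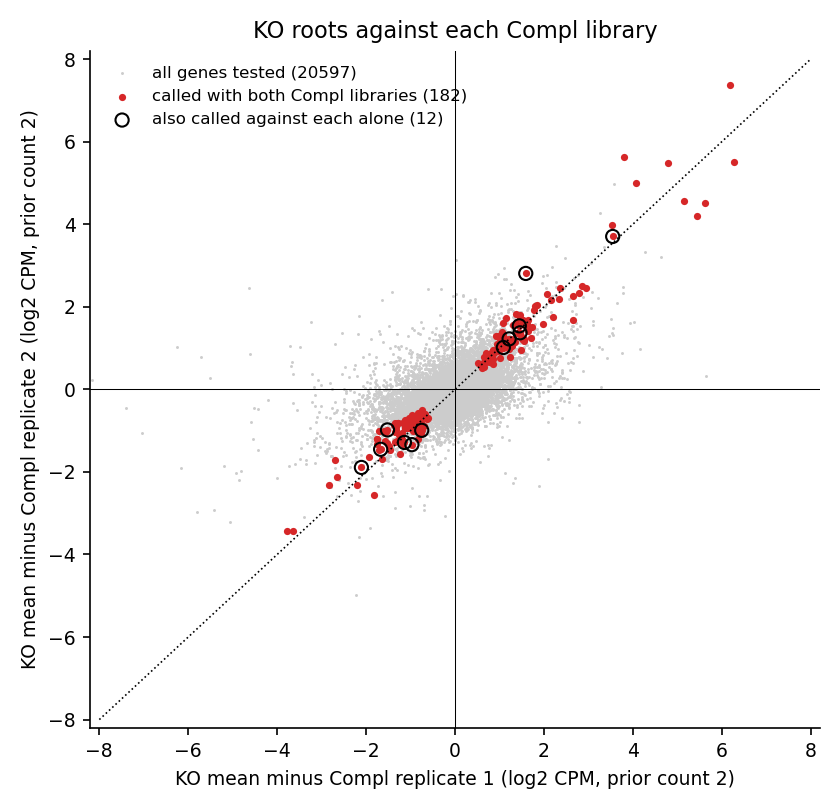
KO mean minus Compl replicate 1 (horizontal) and minus Compl replicate 2 (vertical) for each of 20597 genes, in log2 CPM with a prior count of 2; red points are the 182 called genes, rings the 12 called against each Compl library alone, and the dotted line marks equal differences. The red points lie along the line in 2 quadrants, while grey points spread wider, with more genes over 1 log2 unit from Compl replicate 1 (850 higher and 1152 lower) than from Compl replicate 2 (548 and 420).

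Some genes of phosphate shortage rose several-fold in KO, and most did not pass. Over 5 lists of phosphate genes, 75 of 89 entries were measured; 8 rose and 2 fell in KO (background 0.884% of all genes in either direction), and their median log2 fold change was 0.00, beside -0.01 for all genes tested. Of the 75, 24 lay above both Compl libraries in both KO libraries and 19 below (23.8% and 24.6% of all genes did). The 10 that passed were spread over all 5 lists.

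Among the signals, the noncoding RNA IPS1 (AT3G09922, chromosome 3, 3050989 to 3051530), which holds miR399 away from its target, read 51.6 and 84.0 CPM in KO and 4.63 and 1.25 CPM in Compl. Its log2 fold change was 4.55 ± 0.69 (adjusted p = 0.045). SPX1 (AT5G20150), an inhibitor of PHR1 that PHR1 itself induces, read 113 and 169 CPM in KO against 53.5 and 39.0 CPM (1.61 ± 0.23, adjusted p = 0.0435). In both genes the KO libraries lay above both Compl libraries, with KO replicate 2 the higher. PHO2 read 100.3 and 132 CPM in KO and 527 and 746 CPM in Compl, groups far apart, yet did not pass (-2.45 ± 0.44, adjusted p = 0.0608). AT4, the closest relative of IPS1, read 584 and 907 CPM against 313 and 365 CPM (1.14 ± 0.22, adjusted p = 0.0666); it lies on the chromosome 5 end where Compl replicate 2 reads high. SPX3, also an SPX inhibitor, read 4.97 and 5.46 CPM against 1.09 and 0.602 CPM (adjusted p = 0.116). PHR1, the regulator, read 64.6 and 62.1 CPM against 64.8 and 62.6 CPM (-0.01 ± 0.10). Of 22 measured members of the list 2 rose and 0 fell. Without Compl replicate 1 the adjusted p of IPS1 and SPX1 was 0.0846 and 0.0677, without KO replicate 1 between 0.0784 and 0.14, and without KO replicate 2 between 0.16 and 0.195.

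The sequences by which these RNAs meet are shown because IPS1, PHO2 and a further lower gene, AT3G27150, carry sites for microRNAs of phosphate shortage. They were read 5′ to 3′ from the TAIR10.1 genome of RefSeq and written in DNA letters. In the microRNAs capitals mark the seed (bases 2 to 8). In the sites capitals mark bases that pair with the microRNA named as A with T or G with C. The weaker G:U pairs are in lower case and count as unpaired. The miR399 members a to f share 1 seed, so 1 is shown; the IPS1 and AT4 sites hold 3 extra bases in the middle, the known loop of such target mimics.
ath-miR399d: tGCCAAAGgagatttgccccg
IPS1 site for miR399d: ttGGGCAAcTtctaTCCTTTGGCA
AT4 site for miR399d: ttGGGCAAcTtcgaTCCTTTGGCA
PHO2 site for miR399d: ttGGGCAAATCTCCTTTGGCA
ath-miR2111a-5p: tAATCTGCatcctgaggttta
AT3G27150 site for miR2111a-5p: gAAACCTaAGGATGCAGATTA
The microRNA miR399d is encoded on the minus strand of chromosome 2 (14442988 to 14443008) and miR2111a-5p on the plus strand of chromosome 3 (2854311 to 2854331). The IPS1 site lies at 3051224 to 3051247 on the plus strand of chromosome 3, the AT4 site at 895149 to 895172 on the plus strand of chromosome 5, the PHO2 site at 14281884 to 14281904 on the minus strand of chromosome 2, and the AT3G27150 site at 10010764 to 10010784 on the minus strand of chromosome 3. PHO2 holds 5 such sites with at most 3 unpaired bases. The site shown pairs at 19 of 21 bases, as does that of AT3G27150, and the IPS1 site at 17 of 21. Of the bases counted as unpaired, 1 at the PHO2 site, 2 at the IPS1 site and 0 at the AT3G27150 site can form G:U pairs. AT3G27150, an F-box kelch gene known as a target of miR2111, read 8.30 and 12.8 CPM in KO and 47.7 and 52.1 CPM in Compl (-2.24 ± 0.32, adjusted p = 0.0445, and 0.0896 without Compl replicate 1). Reads over the microRNA precursors were few: that of miR399d had 6 and 16 reads in KO and 0 in either Compl library, and that of miR399c 10 and 4 reads against 1 and 0. Mature microRNAs were not measured in these libraries.

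Among transporters, the changes went both ways. PHO1;H1 (AT1G68740), the nearest relative of PHO1 and itself a phosphate exporter, read 73.4 and 76.5 CPM in KO and 17.8 and 15.1 CPM in Compl (2.19 ± 0.20, adjusted p = 0.0185). It was the single member of the PHO1 family, 9 of 11 measured, that passed. PHT1;8 (AT1G20860), an uptake transporter of the PHT1 family, read 0.869 and 0.714 CPM in KO, or 25 and 23 reads, against 10.8 and 9.31 CPM in Compl, or 207 and 201 reads (-3.66 ± 0.47, adjusted p = 0.0326). PHT1;3 (AT5G43360), of the same family, read 87.4 and 111 CPM against 175 and 197 CPM (-0.91 ± 0.13, adjusted p = 0.0435). The libraries of a group lay close in all 3 genes. Of 17 measured phosphate transporters these 2 fell and 0 rose; the main uptake gene PHT1;1 overlapped between groups, at 346 and 196 CPM against 301 and 495 CPM. PHT1;4, a further uptake gene, read 38.8 and 35.9 CPM against 21.2 and 25.8 CPM (0.67 ± 0.17, adjusted p = 0.111). PHT1;1 to PHT1;3 are near-identical neighbours, so reads that align to several of them were not counted and their levels are uncertain. The adjusted p of the 3 called genes was between 0.0588 and 0.071 without Compl replicate 1, between 0.0784 and 0.169 without KO replicate 1, and between 0.097 and 0.197 without KO replicate 2.

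**Figure D3:**
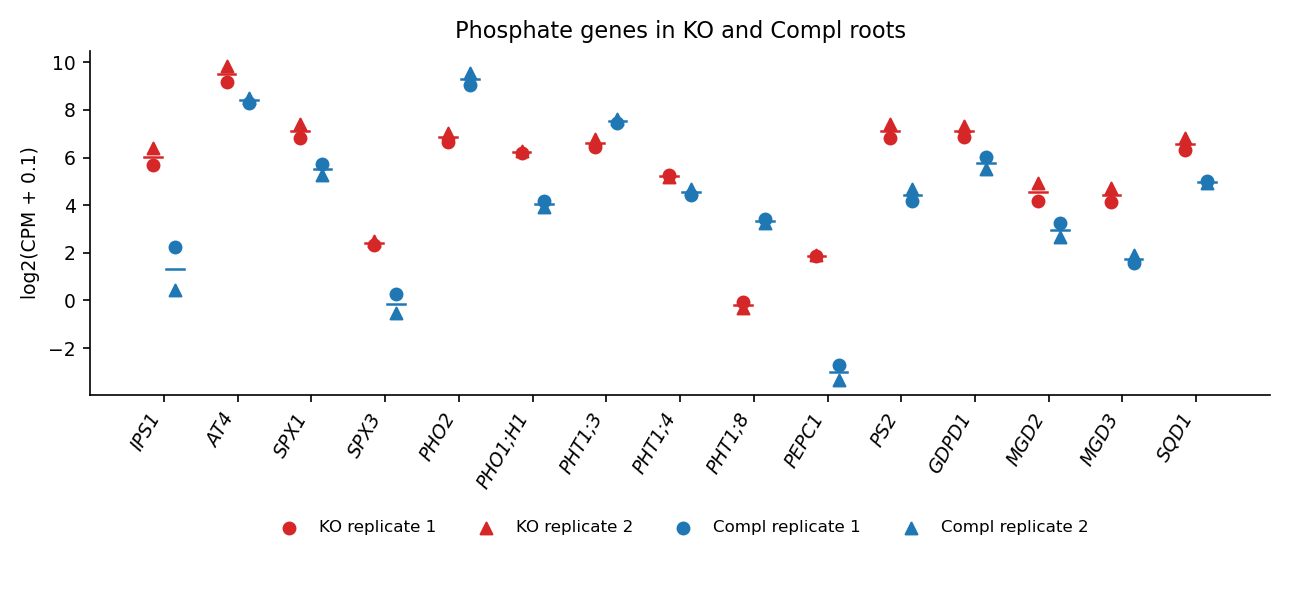
Level of 15 phosphate genes in each library, as log2(CPM + 0.1), with KO in red and Compl in blue, circles for replicate 1, triangles for replicate 2 and bars at the group means; the genes shown were chosen after their values were seen. KO lies above Compl in 12 genes, among them IPS1 and PHO1;H1, and below it in PHO2, PHT1;3 and PHT1;8.

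Genes that recover phosphate from organic compounds were next. PEPC1 (AT1G17710, also written PECP1), a phosphatase of phosphoethanolamine and phosphocholine, had 102 and 116 reads in KO and 1 and 0 reads in Compl (adjusted p = 0.0491). PS2 (AT1G73010), a pyrophosphatase, read 114 and 171 CPM in KO against 18.1 and 25.4 CPM (2.71 ± 0.44, adjusted p = 0.0491). GDPD1 (AT3G02040), which splits glycerophosphodiesters left from phospholipids, read 117 and 162 CPM against 65.2 and 45.2 CPM (1.34 ± 0.21, adjusted p = 0.045). It overlaps the opposite-strand gene AT3G02030 by 681 bases, whose own log2 fold change was 0.06. Of 15 measured genes of the list these 3 rose and 0 fell. The purple acid phosphatase PAP17, a common marker of phosphate shortage, overlapped between groups, at 52.8 and 82.1 CPM against 56.0 and 22.6 CPM, where Compl replicate 1 matched KO and Compl replicate 2 did not. Without Compl replicate 1 the adjusted p of the 3 genes ran from 0.0596 to 0.15. Without Compl replicate 2 PEPC1 missed the threshold too (adjusted p = 0.0645), and without KO replicate 1 or 2 the 3 genes ran from 0.112 to 0.211.

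In membrane lipid remodelling, MGD3 (AT2G11810), which makes galactolipids outside the plastid envelope's main pathway, read 17.3 and 26.2 CPM in KO and 2.86 and 3.71 CPM in Compl (2.72 ± 0.42, adjusted p = 0.045). SQD1 (AT4G33030), which makes the head group of sulfolipid, read 80.1 and 112 CPM against 31.9 and 30.8 CPM (1.61 ± 0.19, adjusted p = 0.0309). For both, KO lay above Compl with a clear gap. MGD2, the partner of MGD3, read 18.1 and 30.1 CPM against 9.41 and 6.21 CPM (1.63 ± 0.31, adjusted p = 0.0713), and SQD2, which completes sulfolipid and lies on the chromosome 5 end, read 54.3 and 76.5 CPM against 50.4 and 61.4 CPM. Of 12 measured genes 2 rose and 0 fell. Without Compl replicate 1 the adjusted p was 0.0825 for SQD1 and 0.14 for MGD3, and without a KO library it ran from 0.0669 to 0.199.

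PHR1 binds the P1BS site, GNATATNC in letters, which reads the same on both strands. It was looked for from 250 bases before to 50 after each annotated gene start. Of 20555 promoters of tested genes 1294 held it (6.3%), as did 18 of the 96 higher genes (18.8%), 6 of the 86 lower genes (6.98%) and 26 of the 75 phosphate genes (34.7%). Of the 8 phosphate genes that rose, 4 held it: SQD1, SPX1, GDPD1 and PS2. In SQD1 the site is GAATATGC at bases 15 to 22 past the start (chr4:15935387-15935394), and in SPX1 it is GGATATTC at bases 23 to 30 past it (chr5:6802304-6802311). The other 2 promoters carry it before the start and are shown over 100 bases, on the minus strand, with the site in capitals, at chr3:350052-350151 for GDPD1 and chr1:27466499-27466598 for PS2.
GDPD1: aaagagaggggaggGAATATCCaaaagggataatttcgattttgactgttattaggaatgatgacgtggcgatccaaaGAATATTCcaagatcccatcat
PS2: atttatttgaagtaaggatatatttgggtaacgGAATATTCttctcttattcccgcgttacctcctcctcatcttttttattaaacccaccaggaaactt
GDPD1 thus holds 2 sites and PS2 1. IPS1, PHO1;H1, MGD3 and PEPC1 do not have these letters in this window, nor do PHT1;8 and PHT1;3.

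Of 40 measured nitrogen genes 4 rose and 3 fell (0.466% and 0.418% of all genes did), with a list median of -0.12. BT2 (AT3G48360) and BT1 (AT5G63160), BTB and TAZ domain proteins that restrain nitrate uptake genes, read 416 and 487 against 88.2 and 81.5 CPM (2.41 ± 0.23, adjusted p = 0.0185) and 596 and 561 against 201 and 187 CPM (1.58 ± 0.21, adjusted p = 0.0371). NIA1, a nitrate reductase, read 251 and 398 CPM in KO against 121 and 123 CPM (1.41 ± 0.23, adjusted p = 0.0491). GDH1, a glutamate dehydrogenase, read 154 and 172 CPM against 94.5 and 90.6 CPM (0.82 ± 0.13, adjusted p = 0.0457). These 4 were higher in KO, with no overlap.

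The 3 that fell act in ammonium uptake, nitrite reduction and glutamine synthesis. AMT1;2, an ammonium transporter, read 39.1 and 37.8 CPM in KO and 75.5 and 97.5 CPM in Compl (-1.17 ± 0.13, adjusted p = 0.0264). RFNR2, the root ferredoxin reductase that feeds nitrite reduction, read 294 and 321 CPM against 595 and 576 CPM (-0.93 ± 0.11, adjusted p = 0.0306). GLN1;1, a cytosolic glutamine synthetase, read 269 and 272 CPM against 602 and 469 CPM (-0.99 ± 0.16, adjusted p = 0.0476), and GLN1;4, named after its values were seen, 11.7 and 11.9 CPM against 21.9 and 19.0 CPM (-0.80 ± 0.13, adjusted p = 0.0499). Of 5 measured genes of this family these 2 were called lower, and 3 lay below both Compl libraries (24.6% of all genes did). GLN1;2, the family member with the highest level, overlapped between groups, at 2443.6 and 1537.9 CPM against 1776.5 and 2480.3 CPM, as did GLN1.3. The nitrite reductase gene NIR1 read 388 and 374 CPM against 543 and 606 CPM and just missed (adjusted p = 0.0593). AMT1;2 was the member that passed against each Compl library alone, at -1.32 without Compl replicate 1 (adjusted p = 0.0277) and -0.97 without Compl replicate 2 (0.0102). For the other 7 called genes the adjusted p without Compl replicate 1 lay between 0.0601 and 0.131, NIA1 reached 0.0528 without Compl replicate 2, and without a KO library all 8 ran from 0.0733 to 0.23.

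Of 11 measured genes of potassium and cation transport, 3 fell and 0 rose (0.884% of all genes were called). CHX17, a cation and proton exchanger of roots, read 32.6 and 14.9 CPM in KO against 157 and 109.9 CPM (-2.49 ± 0.35, adjusted p = 0.0435). HA7, a plasma membrane proton pump, read 72.0 and 60.7 CPM against 116 and 105 CPM (-0.74 ± 0.11, adjusted p = 0.0445). RAP2.11, a transcription factor of the response to low potassium, read 14.5 and 11.0 CPM against 26.2 and 23.7 CPM (-0.97 ± 0.16, adjusted p = 0.0491). The list's median was -0.65. Leaving out Compl replicate 1 brought this median to -0.26, whereas with replicate 1 as the sole Compl library it stood at -0.80. Among the 11 genes, 6 lay below both Compl libraries and 2 above, beside 24.6% and 23.8% of all genes tested. SKOR, the channel that loads potassium into the xylem, read 172 and 142 CPM in KO against 43.9 and 85.7 CPM, where the Compl libraries differ, and did not pass (1.28 ± 0.32, adjusted p = 0.11, and 0.0252 without Compl replicate 2). Among 18 zinc genes HMA2, a pump that loads zinc into the xylem, fell from 52.8 and 47.4 CPM to 19.4 and 24.9 CPM (-1.18 ± 0.16, adjusted p = 0.0402), and ZIP2 read 20.8 and 18.9 CPM against 45.0 and 35.5 CPM (adjusted p = 0.0569). Without Compl replicate 1 the adjusted p of the 4 called genes was 0.0846 to 0.12, without KO replicate 1 0.0494 to 0.159, and without KO replicate 2 0.123 to 0.221.

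A few further lists had 1 called member (0.884% of all genes were called). SUC2, which loads sucrose into phloem, read 119.8 and 113 CPM in KO and 64.0 and 60.3 CPM in Compl (0.91 ± 0.14, adjusted p = 0.0445). The other 11 of 12 phloem markers did not pass, and the list's median was -0.05. HRE1, a low-oxygen transcription factor, read 70.7 and 43.0 CPM against 14.0 and 18.4 CPM (1.81 ± 0.28, adjusted p = 0.045). The enzyme gene ADH1 of the same list lay at 51.7 and 33.6 CPM in KO, between Compl replicate 1 at 20.1 and Compl replicate 2 at 93.5 CPM. CYP79B3, an early enzyme of indole glucosinolates, read 300.2 and 335 CPM against 152 and 120.3 CPM (1.22 ± 0.18, adjusted p = 0.0435). Of 21 measured genes of its list 1 rose and 0 fell, and the list's median was -0.16. In KO 8 of the 21 lay below both Compl libraries and 5 above (24.6% and 23.8% of all genes did). AT1G28680, an acyltransferase of coumarin synthesis in the iron list, read 84.3 and 83.8 CPM against 141 and 119.7 CPM (-0.64 ± 0.11, adjusted p = 0.0491), and the other 30 measured iron genes did not pass; it overlaps AT1G28685 on the opposite strand by 1455 bases, whose log2 fold change was 0.27. These 4 genes had an adjusted p of 0.0663 to 0.133 without Compl replicate 1 and of 0.097 to 0.231 without a KO library.

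Some genes of the cell wall fell. In the list of xylem and secondary wall genes FLA11 and FLA12, fasciclin-like arabinogalactan proteins of thickened walls, fell and 0 rose of 20 measured. FLA11 read 32.4 and 32.7 CPM in KO and 71.7 and 79.5 CPM in Compl (-1.22 ± 0.12, adjusted p = 0.0198), and it lies on the chromosome 5 end. FLA12, elsewhere on that chromosome, read 16.9 and 15.7 CPM against 33.2 and 26.6 CPM (-0.88 ± 0.14, adjusted p = 0.0482). The cellulose synthase genes of the secondary wall did not pass: CESA7 read 52.5 and 47.7 CPM against 116 and 79.5 CPM (adjusted p = 0.055) and CESA4 70.9 and 65.6 CPM against 149.9 and 95.2 CPM (adjusted p = 0.0917). In both, Compl replicate 1 was the higher Compl library, as in 18 of the 20 genes. The list's median was -0.75 with both Compl libraries, -0.46 without replicate 1 and -0.93 without replicate 2, when 13 of its genes were called lower (4.87% of all genes were).

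Gene families of the wall were looked up after the called genes had been seen, so their counts are descriptions, to be read beside 0.418% of all genes called lower, 0.466% called higher and 24.6% below both Compl libraries. Of 14 measured FLA genes 4 were called lower and 0 higher: FLA11, FLA12, FLA13 (4.72 and 3.14 CPM against 12.9 and 10.7 CPM) and FLA15 (38.2 and 44.9 CPM against 74.9 and 65.9 CPM). Of 14 laccases, enzymes that polymerise lignin, 3 were called lower, namely LAC2, LAC6 and LAC10, and 12 lay below both Compl libraries. LAC2 read 28.6 and 32.8 CPM against 101 and 62.2 CPM (-1.41 ± 0.22, adjusted p = 0.0467); LAC6 overlaps 2 opposite-strand loci and LAC10, like LAC11 and LAC12 among the 12, lies on the chromosome 5 end. Of 26 arabinogalactan proteins 3 were called lower (AGP2, AGP12 and AGP21), AGP21 at 51.4 and 49.3 CPM against 92.2 and 84.3 CPM (-0.81 ± 0.09, adjusted p = 0.0266). Of 23 measured XTH genes 1 was called, and 13 lay below both Compl libraries, with a family median of -0.32. It was XTH17, which cuts and rejoins xyloglucan chains and fell from 115 and 99.0 CPM to 36.5 and 35.7 CPM (-1.57 ± 0.14, adjusted p = 0.0158). Of 8 measured genes with a pectin methylesterase (PME) symbol 1 fell and 1 rose, with a median of 0.33. Of these 8, 5 lay above both Compl libraries (23.8% of all genes did). They were picked by symbol alone, PME1 names both AT1G53840 and AT4G12390, and whether each encodes the enzyme was not checked. PME2 fell from 132 and 90.7 CPM to 47.0 and 44.7 CPM (-1.28 ± 0.16, adjusted p = 0.0326), and PME5 rose from 17.3 and 18.9 CPM to 28.8 and 32.3 CPM (0.75 ± 0.11, adjusted p = 0.0445, 0.0887 without Compl replicate 1). XTH17, PME2 and FLA11 passed without Compl replicate 1 (adjusted p = 0.0431, 0.0401 and 0.0471); the other 9 of the 12 lower genes named here had values up to 0.122, and without a KO library all 12 ran from 0.0833 to 0.235.

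Lists of neighbouring root tissues moved with Compl replicate 1. The 26 endodermis and suberin genes, which build the root's barrier layers, had a median of -0.81, of -0.09 without Compl replicate 1 and of -1.23 without Compl replicate 2, and 25 of them were higher in Compl replicate 1 than in Compl replicate 2. Their summed level was 2423 CPM in Compl replicate 1, 1306 CPM in Compl replicate 2, and 1214 and 1265 CPM in KO. The 20 abscisic acid and cold genes had medians of -1.05, 0.07 and -1.47, and the sums over all 22 entries were 3084 and 1160 CPM in Compl against 1060 and 1224 CPM in KO. In neither list was a member called, at a background of 0.884%; without Compl replicate 2, 9 and 10 members were called lower. Fewer cells of a type and less transcript per cell cannot be told apart in whole roots. The 16 flavonoid genes, pigment enzymes, had a median of 1.64 with 0 called, of 2.19 without Compl replicate 1 and of 1.16 without Compl replicate 2, at levels of at most 5.74 CPM in KO. The photosynthesis list had a median of 0.60 with 0 called of 23 measured. In both of these lists the KO libraries differed as well. KO replicate 1 minus KO replicate 2 had a median of -1.01 log2 units in the flavonoid list and -0.64 in the photosynthesis list, beside -0.02 for all genes tested.

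**Figure D4:**
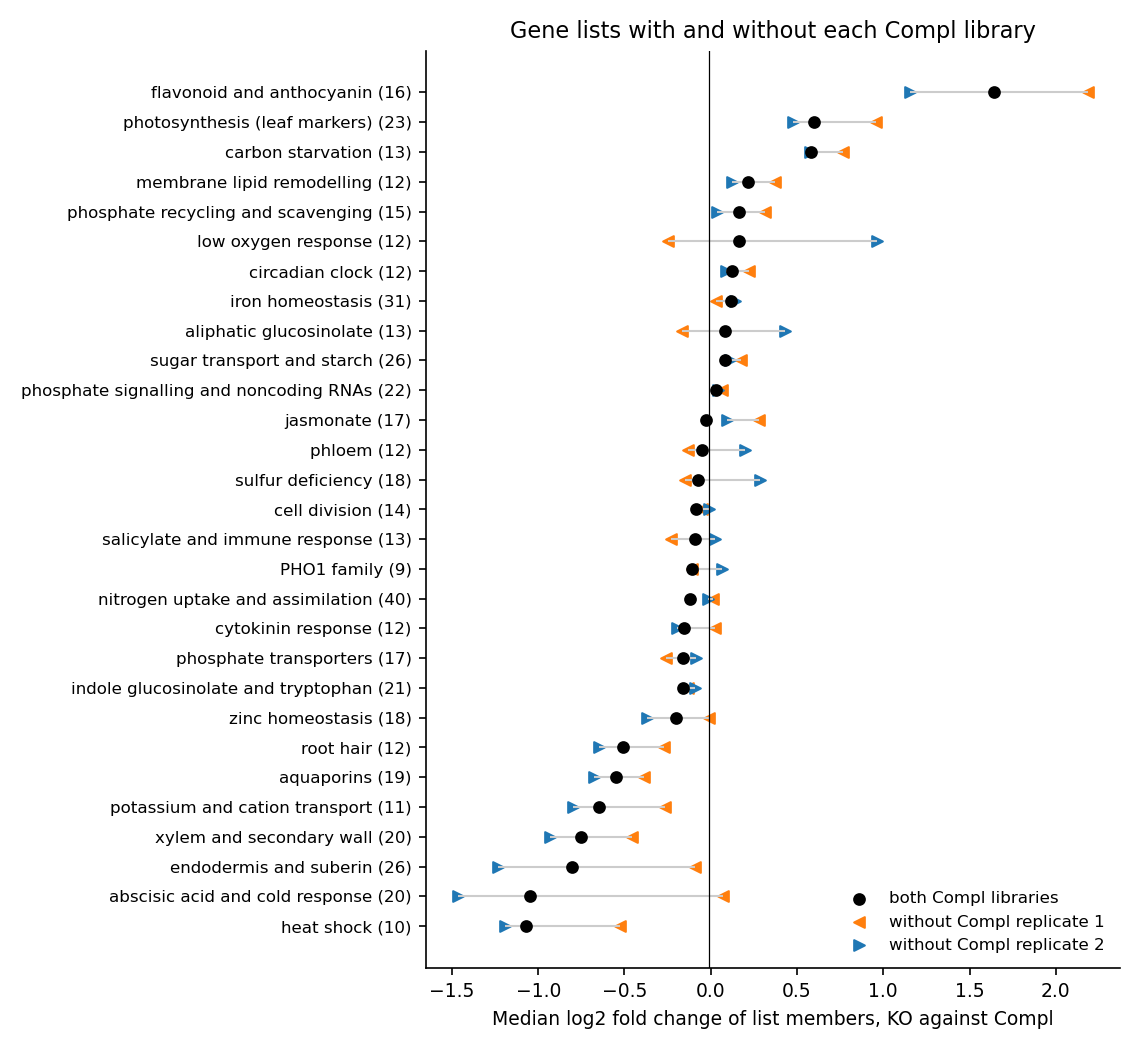
Median log2 fold change of KO against Compl for the measured members of each of 29 gene lists (number in brackets), with both Compl libraries (black), without Compl replicate 1 (orange) and without Compl replicate 2 (blue); the vertical line is the median of all genes tested. The abscisic acid list runs from -1.47 to 0.07 and the suberin list from -1.23 to -0.09, while phosphate signalling stays near 0 in all 3 fits.

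Of the 12 genes that passed against each Compl library alone, 6 fell and 6 rose. The 6 that fell were AT3G28510, XTH17, PME2, FLA11, AMT1;2 and AT5G06930. AT3G28510, a P-loop ATPase, had the largest decrease among them, from 96.2 and 83.0 CPM to 22.9 and 21.7 CPM (-2.01 ± 0.13, adjusted p = 0.00747, and 0.0277 without Compl replicate 1). AT5G06930, a nucleolar-like protein, read 25.0 and 25.7 CPM against 42.7 and 50.6 CPM; it and FLA11 lie on the chromosome 5 end, where Compl replicate 2 reads high. The 6 that rose were AT5G53048, AT4G36850, ALDH3I1, PMT6, J11 and bZIP3.

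AT5G53048, a noncoding RNA, rose from 1.61 and 1.44 CPM to 17.41 and 22.2 CPM (3.70 ± 0.25, adjusted p = 0.00747). It overlaps AT5G53050 on the opposite strand by 1756 bases, and that gene read 15.9 CPM in KO and 17.1 CPM in Compl on average (-0.10). AT4G36850, a PQ-loop membrane protein, read 41.4 and 40.5 CPM in KO against 13.6 and 5.79 CPM (2.09 ± 0.32, adjusted p = 0.045), with the widest gap between Compl libraries among the 12. ALDH3I1, an aldehyde dehydrogenase of stress responses, read 26 and 24.1 CPM against 9.15 and 8.57 CPM (1.5 ± 0.11, adjusted p = 0.00912). PMT6, a polyol and monosaccharide transporter, read 28.4 and 30.0 CPM against 10.6 and 11.3 CPM (1.42 ± 0.11, adjusted p = 0.00912). J11, a chloroplast DnaJ chaperone, read 257 and 239.9 CPM against 107 and 106 CPM (1.22 ± 0.10, adjusted p = 0.00912), and the transcription factor gene bZIP3 66.7 and 71.6 CPM against 32.5 and 34.2 CPM (1.05 ± 0.09, adjusted p = 0.0156). AT5G06930 and bZIP3 lay outside the naming rule and were named after their values were seen. Without Compl replicate 1 these 6 had an adjusted p between 0.00606 and 0.0431. Without KO replicate 2 none of the 12 was called.

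**Figure D5:**
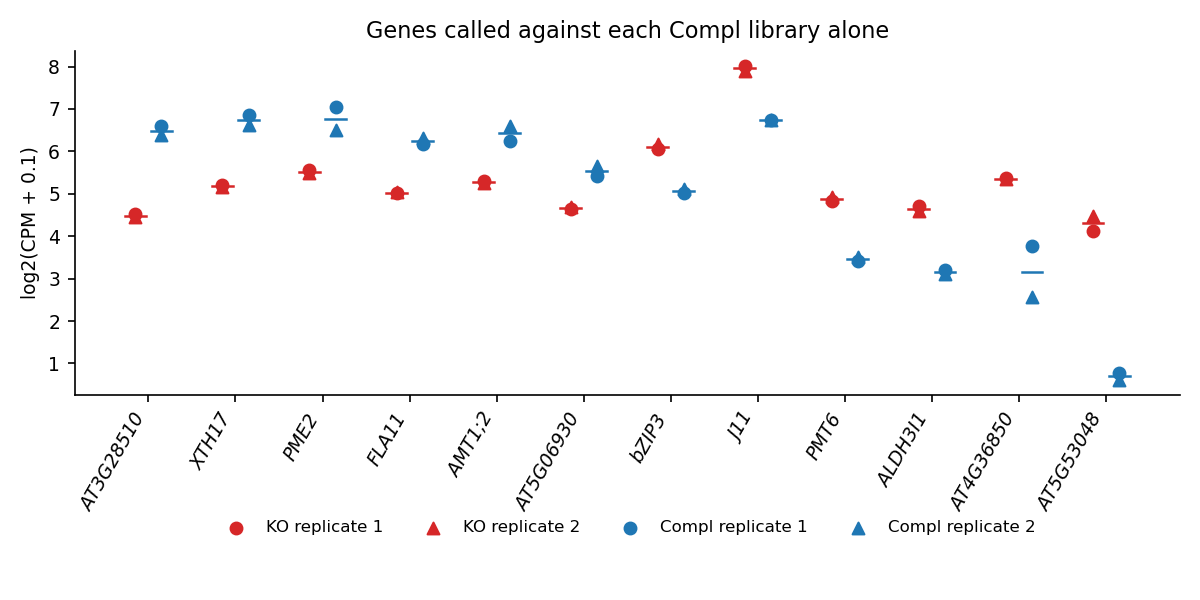
Level of the 12 genes called against each Compl library alone, as log2(CPM + 0.1), with KO in red and Compl in blue, circles for replicate 1, triangles for replicate 2 and bars at the group means. In all 12 the KO libraries lie within a narrow range outside that of Compl; the widest Compl gap is that of AT4G36850, at 13.6 and 5.79 CPM.

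The largest increases by size were mostly in genes close to silent in Compl. AT2G34210, annotated as an Spt5 elongation factor gene, had 372 and 449 reads in KO and 2 and 0 reads in Compl (adjusted p = 0.0491). It starts 823 bases past the end of the MIR399F hairpin on the same strand of chromosome 2 (14445938 to 14450522), and the MIR399E and MIR399F hairpins themselves had 0 reads in every root library. AT2G30540, a thioredoxin-family gene, had 612 and 506 reads in KO against 3 and 7 (6.21 ± 0.87, adjusted p = 0.0435). The noncoding RNA AT1G21529 had 150 and 200 reads against 1 and 5 (adjusted p = 0.0261). RL3, a small MYB-like protein, read 24.3 and 19.6 CPM against 0.364 and 0.880 CPM (5.10 ± 0.75, adjusted p = 0.0445). AT3G25240 (5.06 ± 0.57), AT5G20790 (4.61 ± 0.47) and AT1G23110 (3.84 ± 0.36), proteins of unknown role, followed, with AT5G20790 at 28.9 and 54.8 CPM against 2.29 and 1.16 CPM. Of the 15 largest increases 6 promoters (40%) held the P1BS letters.

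The largest decreases besides PHT1;8 were in AT4G32950, a protein phosphatase 2C, at 5.98 and 5.28 CPM against 78.4 and 61.2 CPM (-3.63 ± 0.56, adjusted p = 0.045), and in CHX17. AT2G17500, an auxin efflux carrier-like protein, read 39.5 and 57.2 CPM in KO against 309.7 and 156 CPM (-2.27 ± 0.33, adjusted p = 0.0445), with a clear gap between the Compl libraries. PBS3, which conjugates salicylate precursors, read 1.32 and 2.02 CPM against 6.03 and 10.1 CPM (-2.26 ± 0.37, adjusted p = 0.0482). Of 10 of the large increases 1 was called without Compl replicate 1, 8 without Compl replicate 2, 3 without KO replicate 1 and 0 without KO replicate 2. Of 11 of the large decreases these counts were 1, 11, 0 and 0.

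Some receptors and a repressor of gibberellin, a growth hormone, were also higher, a set noticed after the values were seen. The receptor gene GID1B overlapped between groups, at 43.7 and 35.2 CPM in KO against 43.9 and 35.2 CPM. Of 5 DELLA repressors 3 lay above both Compl libraries and 1, RGL1, below (23.8% and 24.6% of all genes did). GID1A read 59.3 and 62.0 CPM in KO against 35.1 and 38.2 CPM (0.73 ± 0.11, adjusted p = 0.0449), GID1C 36.7 and 39.3 CPM against 21.5 and 20.1 CPM (0.87 ± 0.13, adjusted p = 0.0449), and the DELLA repressor GAI 48.3 and 54.4 CPM against 32.5 and 32.3 CPM (0.66 ± 0.10, adjusted p = 0.0445). Of 3 measured GID1 genes 2 were called higher, and of 5 DELLA genes 1, where 0.466% of all genes were. The adjusted p of these 3 genes was 0.0846 to 0.1 without Compl replicate 1 and 0.143 to 0.213 without a KO library.

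The EXS lines were set against the same Compl libraries, so their values share the controls of the comparison above and are given side by side without a test of likeness. EXS32 against Compl called 12.4% of genes and EXS34 against Compl 0.131%. The log2 fold change of IPS1 was 4.55 in KO, 4.28 in EXS32 and 4.31 in EXS34. For PHO1;H1 the values were 2.19, 1.14 and 1.2, and for SPX1 1.61, 0.98 and 0.95. SQD1 gave 1.61, 1.22 and 0.95, and MGD3 2.72, 3.05 and 2.2. Among the lower genes PHT1;8 gave -3.66, -3.75 and -2.26, and AMT1;2 -1.17, -2.91 and -1.18. By edgeR's test of EXS34, PHO1;H1, SPX1, SQD1, MGD3 and PHT1;8 did not pass (adjusted p between 0.0838 and 0.165), and AMT1;2 did (0.0471). Each of these genes passed in EXS32. RL3 gave 5.10, 3.47 and 0.88, and FLA13 -1.59, -0.33 and 0.46. The standard error was 0.69 for each value of IPS1 and at most 0.848, for RL3 in EXS34, among the others.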

How the data were processed

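Whole-number read counts per gene were deposited for each library, over 32678 loci, from stranded mRNA per the labels' protocols. Per the submitters' processing notes, the tools included TopHat2 2.0.9, HTSeq 0.5.4p3 and cutadapt 1.2.1, with TAIR10. Their settings, strand included, are unknown here, so overlapping, antisense and near-identical genes are uncertain. The 5 lines that name no gene (in these 4 libraries 9.34 to 10.26% of reads) were left out.

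One edgeR 4.0.16 model (R 4.3.3) took all 8 root libraries: filterByExpr (count 10, total 15), TMM, robust quasi-likelihood test without a block, and Benjamini-Hochberg adjustment over all genes at 0.05. The standard error is the size of the log2 fold change over the root of F. DESeq2 1.42.0, limma-voom (limma 3.58.1), other scalings and filters, and fits without each library were the alternatives. A gene held against both Compl libraries if called in the full fit and, with the same sign, without either of them. Chi-square per degree of freedom between replicates was 25.2 for KO and 39.2 for Compl, so neither pair is a copy. Chromosome ends came from a running median over 9 genes. Marker sums are CPM by library size alone. The model was tested on simulated data in which no library or chromosome end stood apart, so that test does not cover these features of the Compl libraries.

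Symbols, coordinates and sequences come from RefSeq TAIR10.1 (31912 loci matched). The members and the 29 lists (541 entries) were chosen with earlier results of these data known. The naming rule took PHO1, the 15 largest called increases and decreases (no overlap, and 2 CPM or more on average in either group), called list members, list members with the lowest adjusted p, genes that held against both Compl libraries, and called genes with the widest gap between them. Of the 120 genes so named, those not described are covered by counts.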

Additional observations from a re-analysis of the deposited data

How the results depend on the processing

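The number of called genes, 182 (96 higher and 86 lower), depended on single libraries and on the tool. With 1 library left out it ran from 0 to 1427, the higher genes from 0 to 407 and the lower from 0 to 1020. DESeq2 called 1234 (474 higher and 760 lower), limma-voom 78 (32 and 46), the fit of only the 4 KO and Compl libraries 11 (8 and 3), and the fit with the replicate number as a block 104 (60 and 44), with 87 of its genes among the 182. Library size as the sole scaling gave 237, of which 156 were higher, or 65.8% instead of 52.7%. Leaving out the 2 chromosome ends gave 139 (54 lower), all among the 182, and doing so without Compl replicate 1 gave 11 (6 and 5), of which 8 were; these last 2 settings were chosen after the data were seen. Other scalings and filters kept each count within 1.5 times. The replicate numbers were not used as pairs, since the labels give no shared batch. The deviations of same-numbered KO and Compl libraries correlated at -0.137, those of KO and EXS32 at -0.251 and those of KO and EXS34 at 0.219. With 2 libraries a group these values cannot tell whether a batch was shared.

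Of the 56 called genes named by the rule, none changed sign in any setting, but every setting reuses libraries that selected them. All 56 stayed called with DESeq2, 52 without Compl replicate 2, 33 with the replicate block, 28 with limma-voom, 10 without Compl replicate 1, 4 without KO replicate 1 and 0 without KO replicate 2. Among genes named by the rule that were not called, AT1G69480 (-1.02) ran from -1.81 to 0.85 with 1 library left out, changing sign without Compl replicate 1 (0.84 with the chromosome ends also left out), and AT2G03240 (-0.33) from -0.595 to 0.0243 (0.0177). The cause was not tested. With 2 libraries a group, a library left alone is assumed to vary like the others, and genes of a few reads are measured least precisely.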

Other observations

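Of the 96 higher genes, 4 with products in the chloroplast were picked by hand after their values were seen, and they stand for no list. Of the 23 measured photosynthesis genes 0 were called by edgeR. By the same test 7 of the 23 had an unadjusted p under 0.05, where 4090 of all 20597 genes tested did. CDSP32, a chloroplast thioredoxin, read 6.88 and 4.84 CPM in KO against 1.56 and 1.34 CPM in Compl (2.01 ± 0.25, adjusted p = 0.0309). CAO, a chloroplast signal recognition subunit, read 12 and 9.25 CPM against 4.00 and 3.38 CPM (1.52 ± 0.20), and ATPC1, the gamma subunit of the chloroplast ATP synthase, 14.3 and 15.1 CPM against 4.99 and 6.25 CPM (1.39 ± 0.15). CHLM of chlorophyll synthesis read 32.3 and 28.2 CPM against 16.1 and 12.3 CPM (1.1 ± 0.16). The 27 leaf photosynthesis genes summed to 164 and 234 CPM in KO and to 127 and 109 CPM in Compl; the part of leaf transcript in these values was not tested.

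Genes that the 2 Compl libraries place on opposite sides of KO, by over 1 log2 unit from each, numbered 29. In 22 of them Compl replicate 1 was the higher, as for KIN1 and for the sucrose synthase gene SUS3 (16.2 and 1.90 CPM in Compl, 4.62 and 5.28 CPM in KO), and in 7 Compl replicate 2 was.

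Of 25 genes called without Compl replicate 1, 13 were not among the 182, and 8 of the 25 lie on the chromosome ends. AN, on the chromosome 1 end, read 68.1 and 72.5 CPM in KO, 58.7 CPM in Compl replicate 1 and 29.6 CPM in Compl replicate 2.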
